A study of Mus musculus with 2 samples.

Results

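NANOG peaks lying more than 1 kb and at most 10 kb from a transcription start site (TSS) numbered 2745, or 17.3% (95% interval 16.7 to 17.9) of the 15852 peaks of the authors' optimal set on chromosomes 1 to 19 and X (mm10). They were chosen by position alone: the summit of each had to fall within those limits of the nearest protein-coding TSS, taken as the 5′ end of the gene, on either side. These are called proximal peaks here. Of the other optimal peaks, 509 lay at most 1 kb from a TSS (promoter peaks) and 12598 lay farther than 10 kb (distal peaks). NANOG had been mapped by chromatin immunoprecipitation and sequencing (ChIP-seq) in a line of male mouse embryonic stem cells, E14TG2a.4 (strain 129/Ola, labelled age 3.5 days), in 2 biological replicates and with no treatment or second condition. The optimal set was selected by the authors by the irreproducible discovery rate (IDR), a measure of how well replicates rank the same peaks, as was a stricter conservative set, and each replicate also had a relaxed list of 300000 ranked regions of peaks and background. A control experiment that the labels name was not analysed here, read depth is unknown, and no RNA was measured, so the identity of the cells could not be checked against markers.

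NANOG is a homeodomain transcription factor that helps to hold mouse embryonic stem cells in the naive pluripotent state, and it shares many of its sites with OCT4 (gene Pou5f1) and SOX2. A ChIP-seq peak is a place where the antibody recovered more DNA than its surroundings, and its summit is the point of highest recovery. Sequence a few kb from a TSS often holds enhancers, on the upstream side between genes and on the downstream side mostly within introns of the gene itself.

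Peak sequences came from the deposited mm9 list, since the genome used here was mm9 (NCBIM37). Each window is the 101 bp around the midpoint of an mm9 peak, on the plus strand, outside annotated exons. An mm9 peak was taken for a proximal mm10 peak when it had the same nearest gene, the same side and a distance within 500 bp, which matched 1347 of the 2670 proximal peaks searched. Capitals mark exact matches to 6 searched motifs on either strand. The first 4 windows belong to the highest-signal upstream and downstream peaks with a match that the text goes on to describe.
Pccb, chr9:100942272-100942372: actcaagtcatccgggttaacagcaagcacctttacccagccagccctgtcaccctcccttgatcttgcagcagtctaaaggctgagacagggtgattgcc
Rcor2, chr19:7336096-7336196: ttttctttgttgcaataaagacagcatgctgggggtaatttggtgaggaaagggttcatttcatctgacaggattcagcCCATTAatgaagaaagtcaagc
Id3, chr4:135702810-135702910: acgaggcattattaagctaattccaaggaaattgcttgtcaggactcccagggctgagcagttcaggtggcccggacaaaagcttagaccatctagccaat
Fgf5, chr5:98684963-98685063: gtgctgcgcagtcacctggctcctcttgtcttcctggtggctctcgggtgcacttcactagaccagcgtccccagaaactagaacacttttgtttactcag

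Of these windows, that of Rcor2 held 1 motif, the homeobox core TAATGG (read on the other strand as CCATTA). The next 3 windows lay at genes of the core pluripotency list and held an exact motif, in each case the same homeobox core.
Tcf7l1, chr6:72737526-72737626: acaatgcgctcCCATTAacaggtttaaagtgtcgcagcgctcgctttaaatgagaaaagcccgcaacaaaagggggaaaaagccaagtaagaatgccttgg
Tbx3, chr5:120130090-120130190: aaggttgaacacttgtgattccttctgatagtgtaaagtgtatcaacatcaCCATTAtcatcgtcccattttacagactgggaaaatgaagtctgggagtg
Mycn, chr12:12950184-12950284: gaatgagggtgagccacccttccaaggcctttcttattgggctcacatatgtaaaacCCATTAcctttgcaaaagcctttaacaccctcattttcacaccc

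The last 3 windows were chosen after their values were seen, to show the other motifs. The window of Spred2 held the SOX site CATTGTT and the OCT octamer ATGCAAAT, both on the minus strand. Those of Fgf4 and Fzd7 held the ESRRB site TCAAGGTCA.
Spred2, chr11:19818122-19818222: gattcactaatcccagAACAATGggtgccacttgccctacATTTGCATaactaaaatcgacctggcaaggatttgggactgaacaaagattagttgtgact
Fgf4, chr7:152037254-152037354: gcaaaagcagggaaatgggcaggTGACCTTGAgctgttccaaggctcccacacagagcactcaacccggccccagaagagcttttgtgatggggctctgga
Fzd7, chr1:59532184-59532284: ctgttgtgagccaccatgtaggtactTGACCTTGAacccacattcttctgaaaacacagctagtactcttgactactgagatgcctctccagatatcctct

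The highest proximal signals were spread over genes of many kinds. The signal is the authors' enrichment statistic, on a scale they do not state. It was used to describe and rank peaks within a list, to split them at the median of the optimal set and to form classes of signal. For each peak, the value in a replicate is that of the overlapping region in the replicate's relaxed list. Rax, which encodes a homeodomain factor of early eye development, had a peak at 2.23 kb upstream (chromosome 18, 65941131 to 65941538) with the highest proximal signal, 502.0, with 318.7 in replicate 1 and 182 in replicate 2. It was followed by a peak 5.28 kb upstream of Poli, a translesion DNA polymerase, with signal 484.6 (333 and 151 in the replicates), and one 6.53 kb upstream of Fam13c with signal 459.0 (297.6 and 162). Both lay outside protein-coding genes.

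Downstream of the TSS, the highest signals were inside the genes Dip2b, 4.03 kb from the TSS (chromosome 15, 100041448 to 100041856), with 454.9, and Accsl, 2.59 kb from it, with 454.3. Mfsd14a followed with 441.2 at 6.26 kb. Among the 15 highest were also genes of transcription and chromatin. Rcor2, a corepressor that works with the demethylase LSD1, reached 419.5 in a peak lying 5.71 kb upstream (chromosome 19, 7261375 to 7261912), with 245 in replicate 1 and 173 in replicate 2. Rbbp5, a subunit of H3K4 methyltransferase complexes, had one of 391.6 at 6.13 kb upstream. The BMP target Id3, which blocks basic helix-loop-helix factors, had a peak of 384.8 lying 3.13 kb downstream of its TSS and past the end of the gene (chromosome 4, 136146736 to 136147146). Fgf5, a marker of the formative epiblast, had one of 374.8 in its body at 1.72 kb downstream (chromosome 5, 98255735 to 98256065), and Gli2, a transcription factor of hedgehog signalling, one of 371.4 at 5.22 kb downstream. The others of these 15 peaks were nearest to Pccb, D630039A03Rik, Rai14 and Ssr2. All 15 were in the conservative set and overlapped a top region of each replicate.

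Over the 2745 proximal peaks, the median signal was 40.1 (quartiles 26.9 and 67.3, range 7.37 to 502.0). Promoter peaks had a median of 32.8 and distal peaks one of 40.6. The share with a signal above the median of the optimal set (50% of all optimal peaks) was 49.8% (47.9 to 51.7) for proximal peaks and 50.5% for distal peaks, a difference of -0.70 points (95% limits -2.76 to 1.37). Fisher's exact test, two-sided and adjusted over 11 tests of peak shares by the Benjamini-Hochberg method, did not call it (adjusted p = 0.565). Promoter peaks had 37.1% (32.9 to 41.5), 12.7 points fewer than proximal peaks (8.11 to 17.3, Fisher's exact test, adjusted p = 1.43e-06). Intervals are exact Clopper-Pearson intervals for shares and normal limits for differences. They cover counting error only, since peaks are not independent replicates and the pooled sets carry no replicate error.

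Proximal positions held a slightly larger share of NANOG peaks than of background. As comparison served the regions with the lowest rank in the pooled list, 99974 on the same chromosomes, of which 16.1% (15.8 to 16.3) were proximal. The difference from 17.3% was 1.25 points (0.61 to 1.88), with odds ratio 1.09 (Fisher's exact test, adjusted p = 0.000197). The share did not grow with signal: over 10 equal classes of signal it lay between 16.3% and 18.2%.

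The proximal peaks lay evenly on both sides, with 1377 upstream and 1368 downstream, while the background leaned downstream. The upstream share was 50.2% (48.3 to 52.1) for peaks and 45.6% (44.8 to 46.4) for background regions, which is odds ratio 1.20 (Fisher's exact test, adjusted p = 3.08e-05). In replicate 2 alone the call was lost, with an upstream share of 47.5% and odds ratio 1.08 (Fisher's exact test, adjusted p = 0.0879). Among the proximal distances, the largest ratio to background was at 1 to 2 kb upstream, where 209 peaks made up 1.32% (1.15 to 1.51) of the optimal set against 0.945% of background, a ratio of 1.39. The neighbouring promoter bin, up to 1 kb upstream, was higher still at 1.59. The bins farther upstream had ratios from 0.963 to 1.26. Downstream, the ratios of the proximal bins lay between 0.889 and 1.09. The promoter bin there, up to 1 kb downstream, was lower than any of these at 0.783. The upstream share was 45.1% in the lowest class of signal and 56.5% in the highest, with values from 42.9% to 57.3% in between and no steady order.

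**Figure D1:**
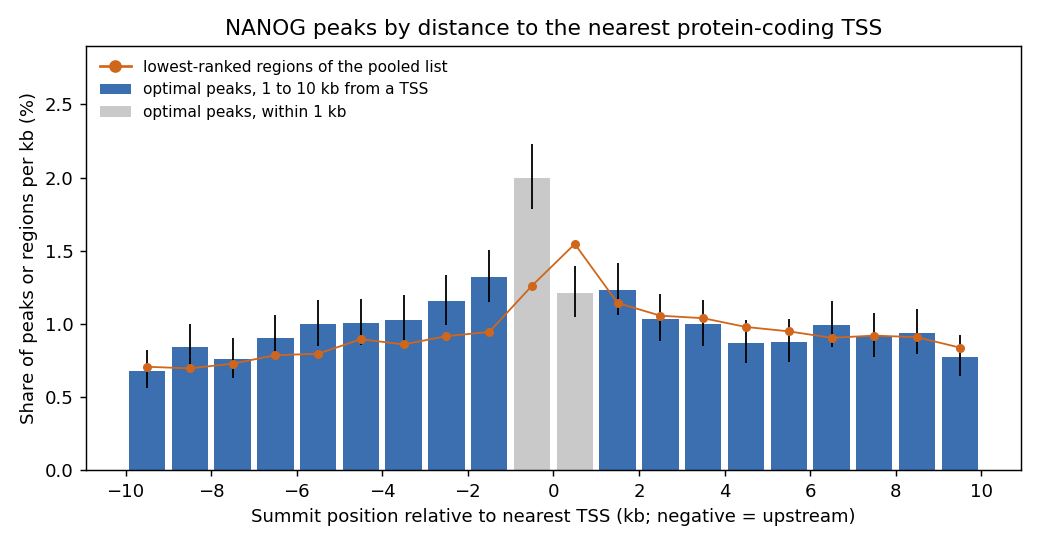
Share of optimal NANOG peaks (bars, % per kb, with exact 95% intervals) and of the lowest-ranked background regions (orange line) by position relative to the nearest protein-coding TSS in kb, upstream negative. From 1 to 9 kb upstream the bars of the proximal peaks (blue) stand above the background line, while downstream they lie close to it.

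Upstream proximal peaks were less often inside a neighbouring gene than background. Of the 1377 upstream peaks, 13.1% (11.3 to 14.97) lay in the body of another protein-coding gene, against 23.8% (22.8 to 24.7) of upstream background regions. The odds ratio was 0.483 (Fisher's exact test, adjusted p = 1.59e-19 over 4 tests that were chosen after seeing the data). Of the 1368 downstream peaks, 1187 lay inside the gene of the TSS, 86.8% (84.9 to 88.5), and the background had 86.8% (odds ratio 1.00, Fisher's exact test, adjusted p = 1.00). A further 181 were past its 3′ end. On both sides together, 43.2% of proximal peaks were in the gene of their TSS, 7.29% in another gene and 49.5% outside protein-coding genes. Only 72 (2.62%) lay within 1 kb of a further RefSeq start of a protein-coding gene, 68 of them downstream, and 39 lay within 1 kb of a noncoding RNA start. On mm9, where exons could be read, 2366 of 13340 peak midpoints were proximal (17.7%), 51.1% of these were upstream, and 4.06% (3.30 to 4.93) of proximal midpoints were in exons, 42.8% in introns and 53.1% intergenic. Distal mm9 midpoints had 1.78% in exons and 39.5% in introns.

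Proximal peaks were in the conservative set more often than promoter peaks, and no difference from distal peaks was called. Of all optimal peaks, 56.7% overlapped a conservative peak by at least 1 bp. The share was 57.3% (55.5 to 59.2) for proximal peaks and 56.99% (56.1 to 57.9) for distal peaks, a difference of 0.36 points (-1.69 to 2.40, Fisher's exact test, adjusted p = 0.750). For promoter peaks it was 46.2% (41.8 to 50.6), 11.2 points lower than for proximal peaks (6.46 to 15.9, Fisher's exact test, adjusted p = 1.38e-05). Within 10 strata of signal the odds ratio between proximal and promoter peaks went from 1.57 by Fisher's exact test to 1.16 by the Mantel-Haenszel test and was no longer called (adjusted p = 0.345). Proximal peaks in the conservative set had a median signal of 60.2, and the others one of 26.3.

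Both replicates supported 1431 of the 2745 proximal peaks. A replicate supported a peak when any of its top regions, as many as there are optimal peaks, shared 1 bp or more with it. The share supported by both was 52.1% (50.2 to 54.0) for proximal peaks, 50.5% for distal peaks and 39.7% (35.4 to 44.1) for promoter peaks, against 50.4% of all optimal peaks. The difference from distal peaks was 1.68 points (-0.38 to 3.74, Fisher's exact test, adjusted p = 0.139), and within 10 strata of signal the odds ratio rose from 1.07 to 1.25 (Mantel-Haenszel test, adjusted p = 0.000478). This pooled value does not hold for every stratum: proximal peaks were lower in strata 1 to 3 of signal and higher in strata 4 to 9. The difference from promoter peaks was 12.4 points (7.80 to 17.1, Fisher's exact test, adjusted p = 1.59e-06). Within the strata its odds ratio went from 1.66 by Fisher's exact test to 1.27 by the Mantel-Haenszel test (adjusted p = 0.139).

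The support was unequal between the replicates. Replicate 1 alone supported 890 proximal peaks (32.4%), replicate 2 alone supported 143 (5.21%), and neither supported 281 (10.2%). Regions of the optimal set overlapped the top of replicate 1 in 86.4% and the top of replicate 2 in 54.6%. For proximal peaks the shares were 84.6% (83.1 to 85.9) and 57.3% (55.5 to 59.2), and for distal peaks 87.2% and 54.3%. Proximal peaks were thus supported less often than distal peaks by replicate 1 (odds ratio 0.807, Fisher's exact test, adjusted p = 0.000719) and more often by replicate 2 (odds ratio 1.13, Fisher's exact test, adjusted p = 0.00533), both among the 4 tests chosen after seeing the data. Up to 5 kb the call for replicate 2 was lost (1.12, Fisher's exact test, adjusted p = 0.0566). Where a value was listed, the median signal of proximal peaks was 30.8 in replicate 1 and 11.8 in replicate 2, each on its own scale. Over the 2366 proximal peaks listed in both, Spearman's rho between the replicates was 0.689, and 0.685 over distal peaks. These points share the 2 libraries and the selection of the optimal set, and no test was made. All but 11 of the 1431 peaks supported by both replicates were in the conservative set (99.2%), which was itself derived from these lists.

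**Figure D2:**
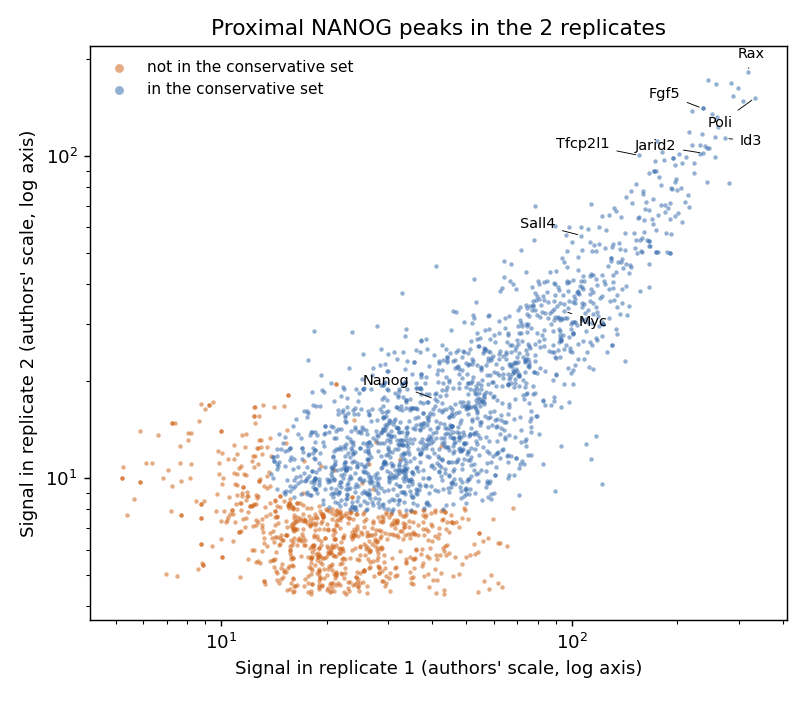
Signal of each proximal peak in replicate 1 (x axis) and replicate 2 (y axis), both on the authors' scale and logarithmic, for the 2366 peaks listed in both relaxed lists, coloured by membership of the conservative set. High peaks such as those of Rax, Fgf5 and Jarid2 are high in both replicates, and peaks outside the conservative set (orange) fill the low end of either axis.

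**Figure D3:**
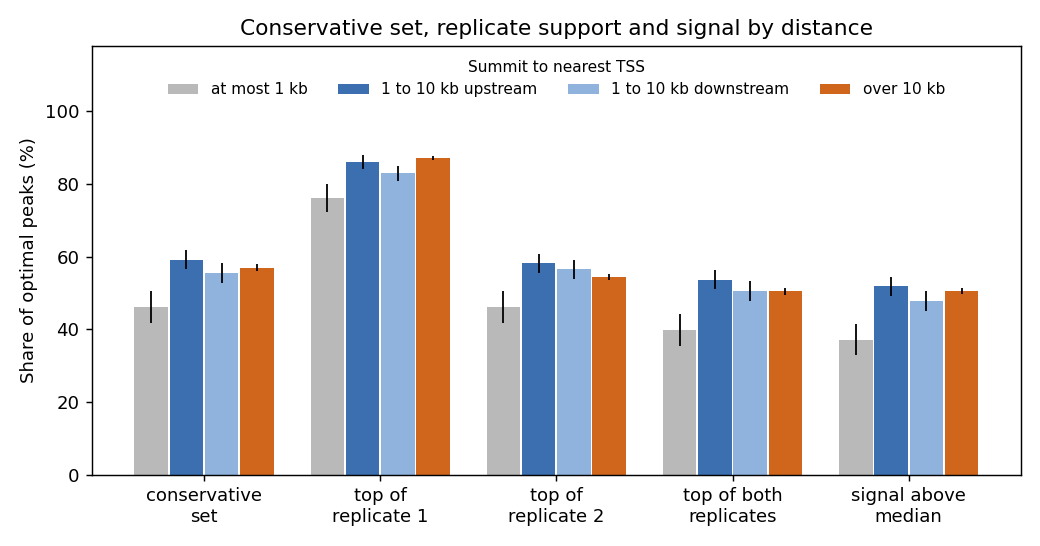
Share of optimal peaks (%) in the conservative set, among the top regions of each or both replicates, and with a signal above the median, by distance of the summit to the nearest TSS, with exact 95% intervals. Promoter peaks (grey) are lowest for each measure, and the upstream, downstream and distal bars lie close together.

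Upstream peaks were higher than downstream peaks in signal, conservative membership and support by both replicates, but none of these differences was called. Their median signals were 41.4 and 38.6, and 51.9% against 47.8% had a signal above the median (4.04 points, 0.31 to 7.78, Fisher's exact test, adjusted p = 0.0656). The conservative set held 59.2% of upstream and 55.5% of downstream peaks (3.70 points, 0.01 to 7.40, Fisher's exact test, adjusted p = 0.0843). Both replicates supported 53.7% and 50.6% (3.08 points, -0.65 to 6.82, Fisher's exact test, adjusted p = 0.139). When the upper limit was set at 5 kb, the first pair of differences was called, with odds ratios of 1.30 for signal and 1.28 for the conservative set (Fisher's exact test, adjusted p = 0.0316 and 0.0463). Within 10 strata of signal the odds ratios by the Mantel-Haenszel test were 1.03 for the conservative set (1.16 by Fisher's exact test) and 0.964 for support by both replicates (1.13), with adjusted p = 0.802 and 0.751. Support by each replicate was not tested between the sides. Replicate 1 supported 86.1% of upstream and 83.0% of downstream peaks, and replicate 2 supported 58.2% and 56.5%.

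The proximal peaks fell to 2272 genes, 10.7% of the 21321 protein-coding genes with a TSS. A single peak was assigned to 1884 of these genes, 2 peaks to 316, and 3 or more to the rest. Of the 388 genes with 2 or more, 134 (34.5%) had peaks on both sides of the TSS. The median of the highest proximal signal was 41.2 for genes with 1 peak and 59.0 for genes with more. The highest of several peaks is on average above a single one, so these medians do not link peak number to signal. Mcl1, an antiapoptotic BCL2 relative, had the most, 5, with a highest signal of 35.8. All 5 were supported by both replicates, but only 2 were in the conservative set, and the lowest had a -log10 q-value of 0.264. When optimal peaks that share bases were merged, Mcl1 kept 3 and the genes with 2 or more numbered 312. A930007A09Rik had 4 peaks, all upstream, with a highest signal of 301.2, and all 4 remained after merging. Ireb2, an iron-responsive regulator of translation, also had 4 upstream, the highest at 266.4. Of these, 2 were in the conservative set and 2 were supported by both replicates, and the lowest, of signal 10.2, had a -log10 q-value of 0.604. Mtmr12 and the WNT receptor gene Fzd7 had 4 each, with highest signals of 170.5 and 160.9. Mtmr12 kept 4 after merging and Fzd7 kept 3, and of the 4 peaks of Fzd7 only 1 was in the conservative set and 1 was supported by both replicates. These 4 genes were the highest in signal of the 11 with 4 peaks. Peaks sharing bases with another optimal peak made up 39.6% of the proximal peaks in the lowest class of signal and 4.27% of the others.

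Gene groups of the pluripotency network had proximal peaks in more of their members than the 10.7% of all genes. The 15 lists, chosen with earlier results of these data known, held 318 genes, 14 of them in more than 1 list. Their shares were not adjusted for how closely neighbouring genes lie, and no list was tested. Of the 21321 genes, 1223 had a proximal peak with an upper limit of 5 kb and 1430 in the conservative set. Without replicate 1 the number was 2559. List counts given below under these settings are to be set beside these numbers, not beside the 10.7%. Of the core and naive pluripotency list, 20 of 30 genes had a proximal peak (66.7%, 47.2 to 82.7), with a median highest signal of 89.2 against 43.6 over all genes with a proximal peak. These 20 genes carried 37 peaks, 20 of them upstream. That is more peaks per gene than the 2745 on 2272 genes. The highest of more peaks is on average higher, so the medians 89.2 and 43.6 are not like for like. Tfcp2l1, a factor of the naive state, was highest with 256.5, at 2.28 kb upstream (chromosome 1, 118625383 to 118625820), 156 in replicate 1 and 100.4 in replicate 2. The peak of Pou5f1, which encodes OCT4, lay 1.98 kb upstream (chromosome 17, 35503915 to 35504212) with 233.4 (163 and 71.7 in the replicates). Tcf7l1, a repressor at the end of WNT signalling, had 225.6 at 1.48 kb inside its gene (148 and 78.0).

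Several other core genes had lower peaks. Sall4, a zinc-finger factor, had peaks of 158.7 and 49.1 inside its gene at 2.45 and 4.44 kb. Sox2 had 93.5 at 3.59 kb upstream, in the conservative set and supported by both replicates (73.7 and 21.3), and 41.8 at 4.07 kb downstream, which was not in that set. Nanog itself had 1 proximal peak, of 59.6 at 4.88 kb upstream (chromosome 6, 122702538 to 122702628; 40.7 and 17.6), in the conservative set. Klf2 had peaks at 2.83 and 7.78 kb upstream (100.6 and 57.04), and Utf1, a chromatin-bound factor of pluripotent cells, had 4, with the highest, 112.4, at 6.10 kb downstream. Myc had 4 too, but of these only the peak at 6.27 kb upstream (129.2) was in the conservative set.

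The other 10 core genes lacked a proximal peak under this rule. Dppa4, Fbxo15, Prdm14 and Zfp42 had promoter peaks instead, at distances from 0.047 to 0.987 kb and with signals from 35.3 to 134.6. The nearest summits of Klf4, Zfp281, Klf5, Stat3 and Esrrb lay between 11.6 and 105.2 kb from the TSS. That of Stat3 had Atp6v0a1 as its nearest TSS, and those of Klf4 and Esrrb were not in the conservative set. The summit at 105.2 kb lay downstream of the Esrrb TSS, which was still the nearest to it. The peak 3.68 kb upstream of Gbx2 had LOC102637806 as its nearest TSS and was counted there.

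Signalling pathways that act on pluripotency also had many such genes. LIF, which sustains mouse embryonic stem cells in culture, acts through 2 receptor chains, and both genes carried high upstream peaks: Il6st (gp130) 318.9 at 1.46 kb and Lifr 284.4 at 8.57 kb. Both were in the conservative set, Il6st with 224 and 95.2 in the replicates and Lifr with 216 and 69.5. In all, 6 of 16 LIF genes had a proximal peak (37.5%, 15.2 to 64.6), among them Tfcp2l1 and the feedback inhibitor Socs3 (91.4 at 5.31 kb upstream). Up to 5 kb the count was 3. Of the FGF list, 12 of 23 had one (52.2%, 30.6 to 73.2), and of the 15 peaks of these genes 12 were in the conservative set, which held 57.3% of all proximal peaks. Besides the ligand Fgf5, they included the receptor Fgfr2 (268.3 at 2.06 kb downstream) and the feedback inhibitors Spred1 (189.3 at 1.06 kb upstream) and Dusp6 (121.6 at 2.31 kb downstream). Fgf4, the FGF ligand of naive cells, had a peak of 47.2 close to the outer limit, at 9.98 kb upstream.

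Of BMP and Nodal genes, 11 of 26 had a proximal peak (42.3%, 23.4 to 63.1), and 7 did in the conservative set. After Id3 the highest belonged to the receptor Acvr1b (268.1 at 7.21 kb inside the gene), the Nodal co-receptor Tdgf1 (98.0 and 87.6 upstream) and Smad7, an inhibitory SMAD (76.6 at 6.39 kb upstream). WNT genes had 7 of 26 (26.9%, 11.6 to 47.8), led by Tcf7l1, Lef1 (174.5 at 7.88 kb upstream) and Fzd7 (160.9 at 9.39 kb upstream), and 4 of 26 up to 5 kb.

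Some genes of the formative and primed epiblast and of other lineages had proximal peaks as well, in shares that differed between the lists. Of the formative and primed epiblast list, 10 of 18 had a proximal peak (55.6%, 30.8 to 78.5), with a median highest signal of 97.9, and 6 had one up to 5 kb. Otx2, a homeobox regulator of the exit from naive pluripotency, had 334.0 at 4.56 kb inside its gene (chromosome 14, 48662918 to 48663235), with 216 and 119 in the replicates. This peak also lay within 1 kb of a further RefSeq start of a protein-coding gene. The de novo methyltransferase gene Dnmt3b had 174.1 at 6.26 kb upstream. Neuroectoderm genes had 7 of 18 (38.9%, 17.3 to 64.3), with Rax far above the next, Nes (95.6), Lhx2 (66.1) and Pax6 (56.2). Mesoderm genes had 5 of 18 (27.8%, 9.69 to 53.5), led by Msgn1 (265.3 at 7.68 kb upstream) and Snai1 (79.3 and 59.4). Primitive endoderm genes had 6 of 18 (33.3%, 13.3 to 59.0) with lower signals, of which the highest was 62.5 at Sparc. Trophectoderm genes had 3 of 16 (18.8%, 4.05 to 45.6), namely Krt8, Cdx2 and Eomes, and germline genes had 3 of 18 (16.7%, 3.58 to 41.4), namely Prdm1, Kit and Zp3. The intervals of the mesoderm, trophectoderm and germline lists include the 10.7% of all genes. Up to 5 kb the counts were 4 for neuroectoderm, 3 for mesoderm and 1 for germline genes, and in the conservative set the trophectoderm count was 1. Over all genes the number also fell, from 2272 to 1223 up to 5 kb and to 1430 in the conservative set.

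Chromatin regulators had intermediate shares. Polycomb genes had 11 of 30 (36.7%, 19.9 to 56.1), with a median highest signal of 75.1. Jarid2, a cofactor of Polycomb repressive complex 2, had peaks at 2.12 and 8.34 kb upstream with 336.1 and 160.6 (chromosome 13, 44728477 to 44728847 for the first), both in the conservative set. Phc1, a subunit of Polycomb repressive complex 1, had 121.1 at 2.06 kb upstream, and Epop and Kdm2b had 89.4 and 82.1. With an upper limit of 5 kb, 6 Polycomb genes had a peak. DNA methylation genes had 6 of 18 (33.3%, 13.3 to 59.0), led by Uhrf2 (232.3 at 1.25 kb upstream), Dnmt3b and the dioxygenase gene Tet1 (147.3 at 5.59 kb and 74.4 at 9.48 kb upstream). This count was 3 in the conservative set and 2 with an upper limit of 5 kb.

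The lists included as contrasts were at or below the share over all genes under the rule of the nearest TSS. Of cytosolic ribosomal protein genes, 3 of 28 had a proximal peak (10.7%, 2.27 to 28.2), with the highest, 116.4, at Rps19. When each TSS in reach of a summit counted, 6 of the 28 had one, beside 2717 of the 21321 genes, so that this list then stood above all genes. In the conservative set 1 of the 28 had one, beside 1430 of the 21321 genes. Of liver, muscle and blood genes, 0 of 29 had one, which allows a share of up to 11.9%. Without replicate 1 the count was 2, beside 2559 of the 21321 genes.

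**Figure D4:**
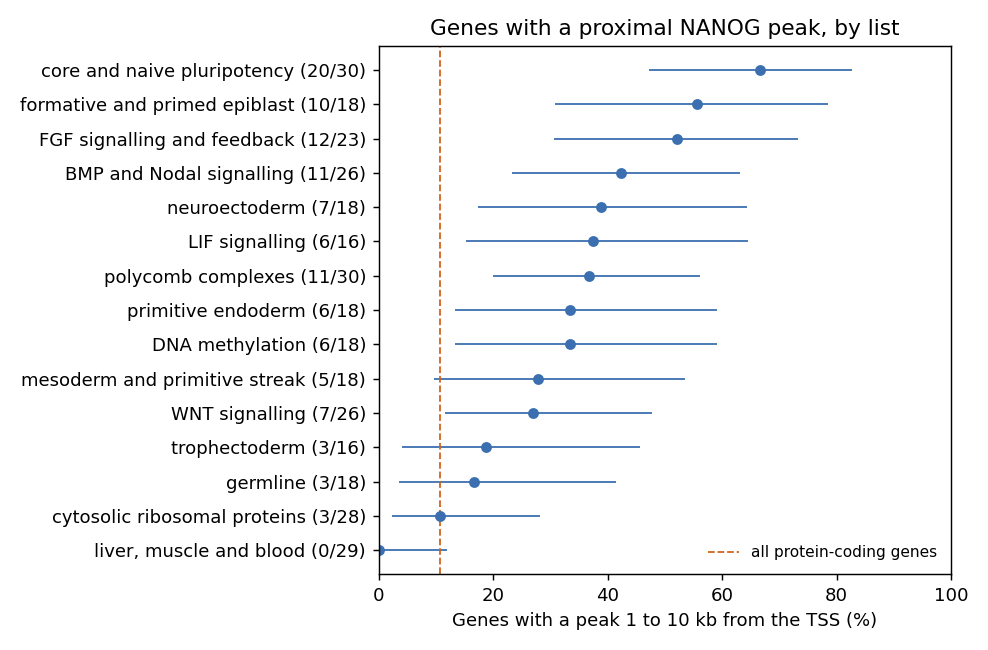
Share of the genes of each list with at least 1 proximal peak (points, %, with exact 95% intervals), with the count beside the name of the list; the dashed line is the share over all protein-coding genes, 10.7%. The core list is highest at 66.7%, and the liver, muscle and blood list is at 0.

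Of the 6 motifs, the ESRRB site was more frequent in proximal than in other peaks, and no difference was called for the rest. In the 2366 proximal windows of 101 bp on mm9, the ESRRB site was found in 49 (2.07%, 1.54 to 2.73), against 138 of 10974 other windows (1.26%, 1.06 to 1.48) and 1.40% of all windows. Its odds ratio was 1.66 (Fisher's exact test, two-sided, adjusted p = 0.0219 over 6 motifs). With 100 bp to each side the odds ratio was 1.44 and was called (Fisher's exact test, adjusted p = 0.0175). It was not called in the upper part by enrichment (1.22) or in the list of either replicate alone (1.31 and 1.30), with Fisher's exact adjusted p from 0.166 to 0.714. ESRRB is an orphan nuclear receptor of the naive network. The proximal and other shares were 2.11% and 2.40% for the OCT octamer (2.35% of all windows), 5.33% and 5.91% for the SOX site (5.81%) and 1.06% and 0.957% for the KLF site GGGNGTGGC (0.975%). The homeobox core was in 5.96% of proximal and 7.04% of other windows (6.85% of all, Fisher's exact test, adjusted p = 0.179), with 4.63% upstream and 7.35% downstream, a split that was not tested. The joint SOX-OCT site, which overlaps the single SOX and OCT motifs, was in 1 proximal and 14 other windows (0.112% of all). In all, 15.6% of proximal and 16.5% of other windows held any of the 6 motifs, so most windows, like those of Pccb, Id3 and Fgf5 printed above, held none as an exact match at the midpoint.

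**Figure D5:**
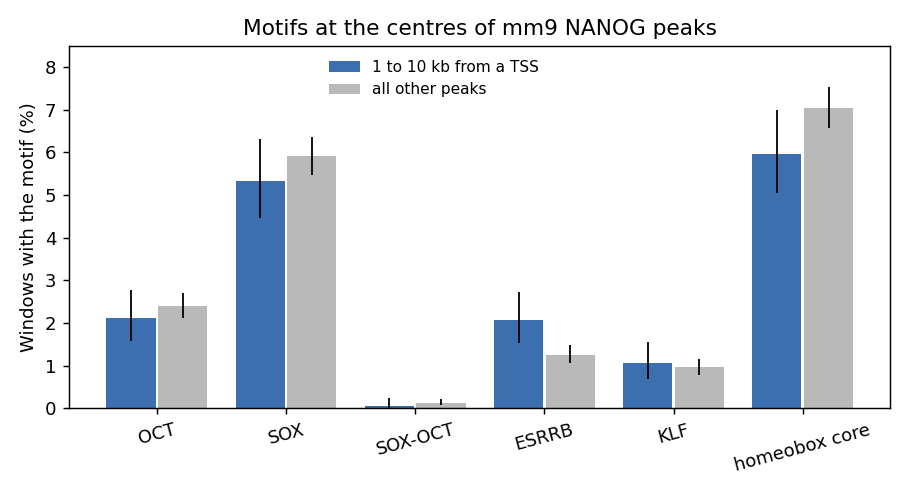
Share of 101 bp windows at the midpoints of mm9 peaks (%) that hold each motif on either strand, for peaks 1 to 10 kb from a TSS (blue) and all other peaks (grey), with exact 95% intervals. The ESRRB site is at 2.07% in proximal and 1.26% in other windows, and the intervals of the other motifs overlap.

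The peaks next to the limits differed little in distance although the rule put them in different classes. At 1 kb, the last peak outside was at Plekhf2 (999 bp, signal 152.9) and the first inside at Gbp4 (1002 bp upstream, 28.4). The 21 peaks within 50 bp below 1 kb had a median of 47.6 and the 28 within 50 bp above it one of 30.04. This rests on few peaks, was not tested, and runs opposite to the medians of all promoter peaks (32.8) and all proximal peaks (40.1). At 10 kb, the last inside was at Mansc4 (9998 bp, 23.8) and the first outside at Itgb7 (10002 bp upstream, 30.1), with medians of 38.4 and 38.2 over 12 peaks on each side.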

How the data were processed

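NANOG ChIP-seq peak lists of 2 biological replicates of 1 group, on mm10 and mm9, were analysed. Per the labels, the mm10 lists are relaxed peak lists per replicate and pooled, with optimal and conservative sets of the reproducibility procedure. Their deposited values are a signal, an integer score and the -log10 of a q-value. For mm9, the deposited values are an enrichment ratio, a -log10 p-value and a q-value. The aligner, caller and IDR threshold are not given in the sources used here.

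Each summit was assigned to the nearest TSS. The work used SciPy 1.17.1 and statsmodels 0.14.6 for tests, pandas 2.3.3 under Python 3.11.15 for tables, samtools 1.23.1 for sequence and matplotlib 3.10.9 for plots. Gene positions came from RefSeq (GRCm38.p6): 21321 of 21631 protein-coding genes on the chromosomes used (98.6%) could be given a strand, from RefSeq promoter records of the same build for 17274 and by symbol from the mm9 annotation for the others. mm9 peaks used GENCODE vM1, and coordinates were never converted between builds. Coordinates are 1-based. 1 item is not reported here. Of the optimal set, 14 regions were listed more than once and kept (6 proximal peaks). Peaks were compared with Fisher's exact test, two-sided, and an adjusted p under 0.05 was a call. Distance, overlap and class assignment were tested on simulated data. The simulated peaks for distance and class lay only at TSSs isolated from other TSSs, so assignment among close TSSs was not covered. Alternatives varied the peak set, distance limits, overlap, signal strata, list length, replicate and motif window; merging of overlapping peaks and 4 tests were chosen after seeing the data.

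The proximal peaks, gene lists and tests were chosen with earlier results of these data known. Genes named were the nearest to the 15 highest proximal peaks, the 5 with most proximal peaks (the 11 tied at 4 peaks ordered by highest signal), up to 4 highest per list, core genes without a proximal peak and those nearest the limits. Sox2, Nanog, Klf2, Utf1, Myc, Fgf4, Spred2 and single members that complete a list were chosen after their values were seen.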

Additional observations from a re-analysis of the deposited data

How the results depend on the processing

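For the comparisons of peak shares, the count of genes and the count of motifs called, 83 alternative values kept their direction and their side of the threshold. Those that did not follow as odds ratios unless named otherwise, with the adjusted p of Fisher's exact test or, within strata of signal, of the Mantel-Haenszel test. The cause was not tested for any of them. Leaving out a replicate gave 1.08 to 1.22 for the upstream share (without replicate 1, exact adjusted p = 0.0879), 0.995 to 1.10 for downstream peaks inside their own gene, and 0 motifs called either way. Between proximal and distal peaks, conservative membership was 0.979 with an upper limit of 5 kb, and signal above the median was 1.00 with a lower limit of 2 kb, both turned in direction and neither called. Support by both replicates was called with summits within 100 bp (1.10, 0.0392) and pooled over strata (1.25, 0.000478). The strata differed in direction, with proximal peaks lower in strata 1 to 3 of signal and higher in strata 4 to 9. Replicate 2 support was not called up to 5 kb (1.12, 0.0566). Between proximal and promoter peaks, the strata ended the calls for conservative membership (1.16, 0.345) and for both replicates (1.27, 0.139). Between upstream and downstream peaks, calls appeared up to 5 kb for conservative membership (1.28, 0.0463) and signal (1.30, 0.0316), and for both replicates with a smaller number of top regions (1.23, 0.0218), while the strata turned the last to 0.964. Downstream peaks inside their own gene gave 1.04 in the conservative set and 1.17 up to 5 kb. Genes with a proximal peak numbered 1430 in the conservative set, of which 1381 were among the 2272, and 1223 up to 5 kb. Without replicate 1 they numbered 2559, of which only 1437 were among the 2272, and without replicate 2 they numbered 2292, with 1972 shared. In the upper part by enrichment 0 motifs were called by Fisher's exact test, with 1 at an unadjusted p under 0.05, against 0 without replicate 1 and 1 without replicate 2. In both settings that motif was the homeobox core, less frequent in proximal peaks (odds ratios 0.717 and 0.832), and not the ESRRB site. No paired analysis was possible because there is 1 group of 2 replicates.

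Support rests on top regions of lists whose read depth is unknown, so the lower support by replicate 2 and its depth cannot be told apart. The pooled, optimal and conservative sets derive from the same libraries. The background regions are the authors' own low-ranked regions, not a control library. The nearest TSS need not be the gene a peak acts on, and only the 5′ end of each gene was used. Motif windows are centred on mm9 midpoints, and 60.5% of the mm10 genes with a proximal peak had one on mm9.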
